A study of Mus musculus with 2 samples.

Results

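The promoters of 42 genes of the DNA damage response and of DNA repair were examined in a chromatin immunoprecipitation sequencing (ChIP-seq) experiment on FLAG-tagged cyclin D1. The 42 genes were listed by symbol, from the kinases that signal damage to the enzymes of each repair pathway. All 42 were found among the 22350 protein-coding genes that the NCBIM37 (mm9) mouse annotation places on the 19 autosomes and X. The cells were mouse 3T3 embryonic fibroblasts of genotype Ccnd1-/-, without a working cyclin D1 gene of their own, that carried a FLAG-cyclin D1 transgene from the MSCV retroviral vector and received no treatment. Both libraries came from these cells. In 1 library fixed chromatin was precipitated with the M2 monoclonal antibody to FLAG, and in the other with normal mouse IgG as the background control. The transgene is driven by a retroviral vector and not by the cyclin D1 promoter, and no library came from cells without the FLAG tag. Each antibody had 1 library and hence no replicate, so that every test below compares these 2 libraries and every interval covers counting error only.

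Cyclin D1 is the regulatory subunit that activates CDK4 and CDK6 in G1, releasing E2F factors from the retinoblastoma protein. It has also been found on chromatin and, in other work, with proteins of homologous recombination. The products of the 42 genes act in sequence after DNA damage. The MRE11-RAD50-NBN complex and the kinases ATM and ATR detect breaks and stalled forks, CHEK1 and CHEK2 carry the signal to the cell cycle, and separate pathways then rejoin breaks, excise damaged bases or undo crosslinks. Many of these genes are transcribed most in dividing cells. The comparison asks how many tags, meaning sequenced fragment ends, anti-FLAG recovered around the transcription start sites (TSS) of these genes beyond what IgG recovered.

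Promoter sequences are given for 4 of the genes because the main results turn on them. Chek2 was the gene that passed the test also when GC content was corrected for. The sequences of Brca1 and Palb2, where an anti-FLAG region lay over the TSS, and of Xrcc3, which had the largest ratio, were chosen after their values were seen. Each runs 5′ to 3′ on the gene's own strand, from 250 bases before to 50 bases from the RefSeq start onwards, taken from RefSeq (GRCm38.p6) and found once in NCBIM37. In NCBIM37 the Chek2 stretch is chr5:111268752-111269051 on the plus strand. The Brca1 stretch is chr11:101413220-101413519, the Palb2 stretch chr7:129276411-129276710 and the Xrcc3 stretch chr12:113052041-113052340, all on the minus strand. Capitals mark matches on either strand to the elements counted further on, the E2F, CCAAT box, Sp1 and ETS elements among them.
Chek2: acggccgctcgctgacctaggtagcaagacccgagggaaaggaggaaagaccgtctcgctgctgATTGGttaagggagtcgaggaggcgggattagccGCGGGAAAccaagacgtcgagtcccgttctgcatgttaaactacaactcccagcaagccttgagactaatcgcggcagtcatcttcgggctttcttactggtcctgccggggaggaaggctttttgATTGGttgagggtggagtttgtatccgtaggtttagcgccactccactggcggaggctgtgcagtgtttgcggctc
Brca1: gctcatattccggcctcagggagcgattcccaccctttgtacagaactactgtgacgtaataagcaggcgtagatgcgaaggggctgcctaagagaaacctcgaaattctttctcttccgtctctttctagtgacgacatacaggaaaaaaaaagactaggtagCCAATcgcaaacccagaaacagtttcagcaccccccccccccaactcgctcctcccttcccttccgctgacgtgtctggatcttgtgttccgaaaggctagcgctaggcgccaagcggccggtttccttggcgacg
Palb2: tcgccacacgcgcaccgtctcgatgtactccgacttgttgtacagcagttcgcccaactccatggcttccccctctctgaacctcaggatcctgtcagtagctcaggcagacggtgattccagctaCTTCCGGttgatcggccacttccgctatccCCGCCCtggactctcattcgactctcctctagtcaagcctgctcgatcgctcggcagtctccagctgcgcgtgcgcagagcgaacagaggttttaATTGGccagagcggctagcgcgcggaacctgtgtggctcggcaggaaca
Xrcc3: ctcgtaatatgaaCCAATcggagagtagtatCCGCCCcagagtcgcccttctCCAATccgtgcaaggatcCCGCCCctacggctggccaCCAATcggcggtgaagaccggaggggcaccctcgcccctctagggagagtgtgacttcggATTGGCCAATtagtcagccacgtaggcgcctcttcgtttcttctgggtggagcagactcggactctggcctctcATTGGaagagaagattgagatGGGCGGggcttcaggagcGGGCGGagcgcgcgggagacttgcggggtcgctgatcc
The Chek2 stretch held an E2F element and CCAAT boxes. The Brca1 stretch held a CCAAT box and none of the other elements, the Palb2 stretch a CCAAT box, an Sp1 and an ETS element, and the Xrcc3 stretch several CCAAT boxes and Sp1 elements.

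The anti-FLAG library held 9259840 tags and the IgG library 9312346, each 36 bp long, so that IgG counts were scaled by 0.994. In introns 1 to 3 of Ccnd1 (4955 bp) anti-FLAG had 1 tag and IgG 0, where the mean density of the anti-FLAG library over the genome gave 17.4. Over the 5 exons of Ccnd1, which the transgene can also supply, the libraries had 44 and 16 tags. In DNA over 10 kb from every TSS the anti-FLAG to IgG ratio rose with GC content, from 0.667 at 22 to 24% GC to 2.70 at 64 to 66% GC. Results are therefore given before and after a correction for GC content. The median GC content of all protein-coding promoters was 54.8% within 500 bp of the TSS and 51.15% within 1 kb. IgG tags were fewest near the TSS: over all genes their density was 3.34 tags per kb within 500 bp and 4.71 from 500 bp to 1 kb. The part of GC content in the ratios at single promoters was not tested apart from this correction.

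Anti-FLAG tags peaked at the start sites of the repair genes. Their density averaged 13.1 tags per kb within 500 bp of the TSS, 8.79 from 500 bp to 1 kb and 4.53 in the flanks 2.5 to 10 kb away. IgG density over the same genes was 4.76, 6.81 and 4.18 tags per kb. In the 200 bp just before the TSS anti-FLAG reached 17.1 tags per kb per gene while IgG was at 2.86, and beyond 1 kb the libraries came close. In sum, 920 anti-FLAG and 486 IgG tags lay within 1 kb, a ratio of 1.90 (95% exact interval 1.70 to 2.13), against 1.70 over all protein-coding genes. Within 500 bp the sums were 551 and 200, a ratio of 2.77 (2.35 to 3.27), against 2.21 over all genes. Of the anti-FLAG tags within 500 bp of the repair genes, 54.6% (exact interval 50.4 to 58.8%) lay upstream of the TSS, and of the IgG tags 60.0%. Over all protein-coding genes these shares were 57.8% and 60.5%.

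**Figure D1:**
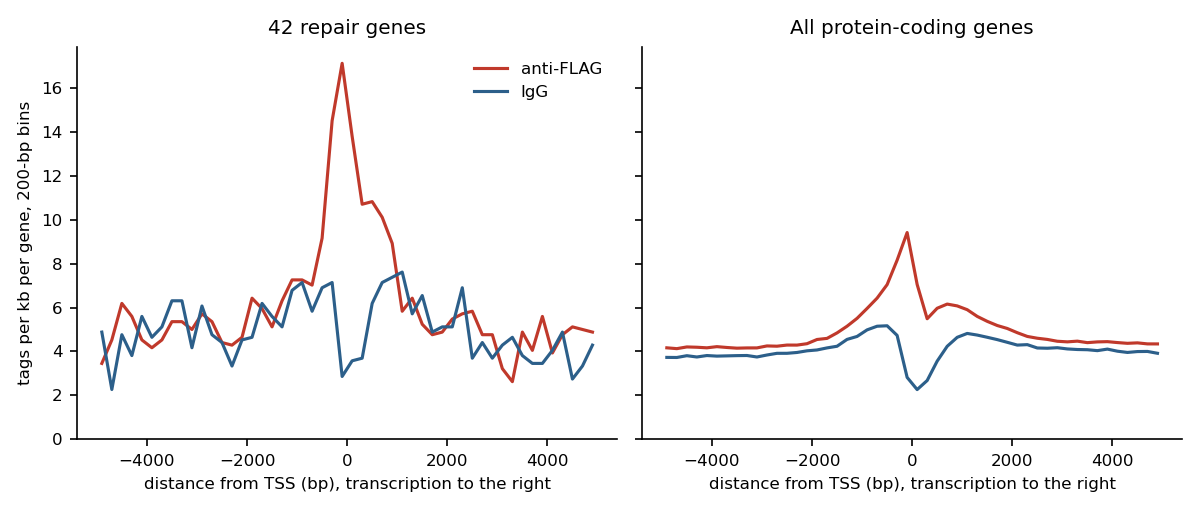
Tag density (tags per kb per gene, y axis, in 200-bp bins) against distance from the TSS (bp, x axis) in the anti-FLAG (red) and IgG (blue) libraries, averaged over the 42 repair genes (left) and over all 22350 protein-coding genes (right). At the repair genes anti-FLAG rises to 17.1 just before the TSS while IgG dips to 2.86, and at all genes the same bin holds 9.42 and 2.81.

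Per gene, the log2 ratio with 1 tag added to each count had a median of 0.75 over the 42 genes within 1 kb and 0.59 over all protein-coding genes. Many genes of the annotation have few tags in either library. Among promoters whose summed tags reached 20, the minimum for testing, the medians were 0.75 for the repair genes and 0.88 for all. Within 500 bp the medians over all genes of each set were 1.46 for the repair genes and 0.82 for all protein-coding genes. Among promoters tested at that width they were 1.67 and 1.46. In the flanks 2.5 to 10 kb from the TSS the medians over all genes of each set were 0.14 and 0.10. Within 1 kb each repair gene had more anti-FLAG than IgG tags except Xrcc6, with 7 in each. Within 500 bp the exceptions were Bard1 and Xrcc6, with more IgG tags, and Xrcc2, with 11 in each. After IgG was scaled, anti-FLAG tags outnumbered IgG tags within 1 kb at all 42 repair genes, beside 17049 of all 22350 protein-coding genes. Within 500 bp they did so at 40 repair genes, beside 17217 of all 22350.

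Each promoter with enough tags was tested with a 2-sided exact conditional binomial test, and p-values were adjusted by Benjamini-Hochberg over all protein-coding promoters tested. Within 1 kb, 38 of the 42 genes were tested and 11 were higher in anti-FLAG, beside 29.7% of the 10942 promoters tested in all. None was higher in IgG, with 0 also at an unadjusted p under 0.05, beside 0.0914% of all promoters. Within 500 bp, 17 were tested and 12 were higher in anti-FLAG, beside 62.3% of 3009. The 25 others did not reach 20 tags there, and since a promoter reaches that number more easily when anti-FLAG is high, the share among those tested supports nothing. None was higher in IgG within 500 bp, with 0 at an unadjusted p under 0.05, beside 0.0997% of all. At both widths the share of repair genes higher in anti-FLAG lay near the share of all tested promoters. 7 genes were higher at both widths, 4 within 1 kb only and 5 within 500 bp only. The 4 were Rad50, Rad51ap1, Xrcc3 and Pms2, which did not reach 20 tags within 500 bp and were not tested there. This split therefore depends on the tag minimum, and the same split over all promoters is not given.

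**Figure D2:**
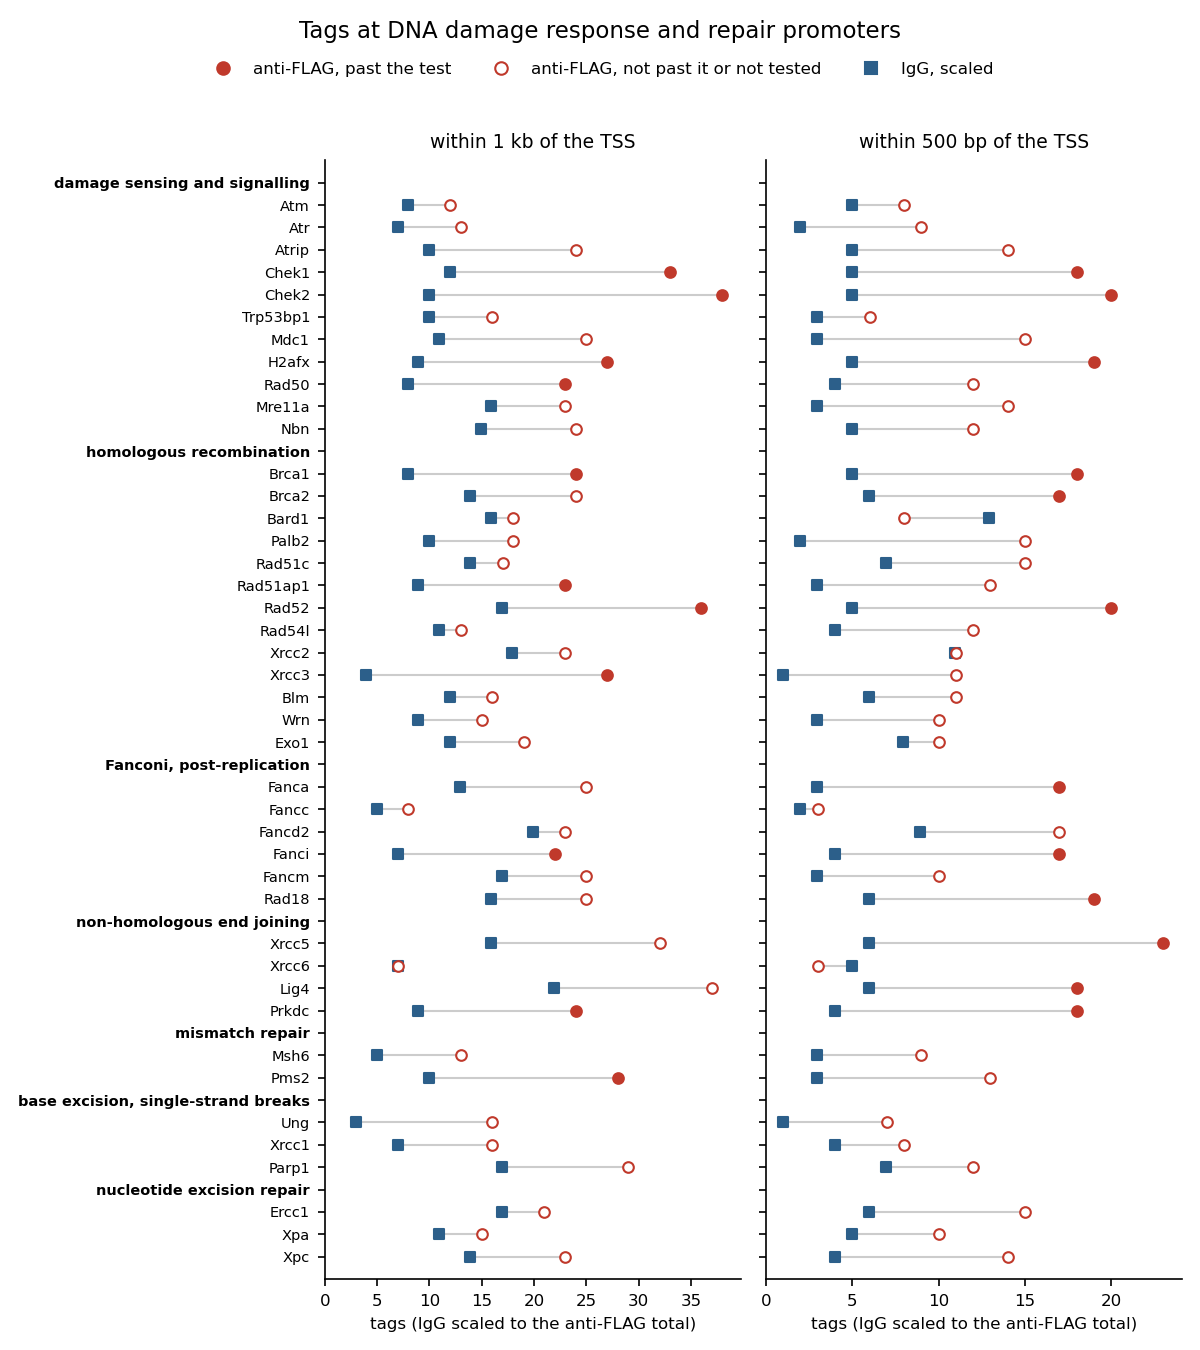
Tags at each of the 42 repair genes (y axis, by role) within 1 kb (left) and 500 bp (right) of the TSS, anti-FLAG as circles and scaled IgG as blue squares (x axis, tags), with filled circles for genes past the exact test. Chek2, with 38 anti-FLAG tags within 1 kb, lies farthest to the right on the left, and Bard1 within 500 bp has its circle, at 8, left of its square.

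Genes of damage sensing and signalling had a median log2 ratio of 1.12 within 1 kb, against 0.88 over all tested promoters. Of these 11 genes, 4 (36.4%) were higher in anti-FLAG, beside 29.7% of all promoters tested. Chek2, the checkpoint kinase downstream of ATM, lies at chr5:111269036-111303152 on the plus strand and had, within 1 kb, 38 tags in anti-FLAG and 10 in IgG. That made a ratio of 3.82 (exact interval 1.87 to 8.60) and an adjusted p of 0.00128 in the exact test. The excess at Chek2 was spread over the whole window, with 20 against 5 tags within 500 bp and 18 against 5 beyond. Within 500 bp its exact adjusted p was 0.00734. In its flanks 2.5 to 10 kb away the order was the other way, with 56 anti-FLAG and 62 IgG tags. Chek1, the kinase downstream of ATR, had 33 and 12 tags within 1 kb, a ratio of 2.77 (1.39 to 5.88, exact adjusted p 0.0114), and 18 and 5 within 500 bp (exact adjusted p 0.0150). H2afx, which encodes the histone H2A.X that is phosphorylated around breaks, had 27 and 9 tags, a ratio of 3.02 (1.38 to 7.29, exact adjusted p 0.0152). Its excess was concentrated near the start, with 19 against 5 tags within 500 bp (exact adjusted p 0.0106).

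Within the break-sensing complex only Rad50 passed the exact test within 1 kb, and differences between its genes were not tested. Rad50 had 23 and 8 tags within 1 kb, a ratio of 2.89 (1.25 to 7.48, exact adjusted p 0.0291). Mre11a, the nuclease, had 23 and 16, and Nbn, the subunit that recruits ATM, had 24 and 15, so that their anti-FLAG counts equalled or exceeded that of Rad50 and their IgG counts were higher. Within 500 bp the largest ratio of these genes was that of Mre11a, with 14 and 3 tags (ratio 4.69). Rad50 had 12 and 4 there (3.02) and Nbn 12 and 5 (2.41). All were under the tag minimum at that width and were not tested. The apical kinases had few tags in either library, Atm 12 and 8 and Atr 13 and 7, and neither passed. Atrip, the partner of ATR, lay just outside the threshold with 24 and 10 tags (exact adjusted p 0.0526), as did Mdc1, the scaffold that binds phosphorylated H2A.X, with 25 and 11 (exact adjusted p 0.0595). With scaling by low-count bins of the genome in place of library totals, Atrip passed (exact adjusted p 0.0293). Trp53bp1, which directs breaks towards end joining, had 16 and 10.

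Among 13 genes of homologous recombination, the repair of breaks from a sister chromatid, the median log2 ratio within 1 kb was 0.69. It was 0.88 over all tested promoters. Of the 13 genes, 4 (30.8%) were higher in anti-FLAG within 1 kb, near the 29.7% of all promoters tested. Xrcc3, a recombination factor, had 27 anti-FLAG and 4 IgG tags, the largest ratio of the 42 genes at 6.79 (exact interval 2.37 to 26.7, exact adjusted p 8.2e-04). The low IgG count made its interval wide, and its flanks also had more anti-FLAG than IgG tags, 83 against 60. Brca1, which opens the pathway by promoting resection, had 24 and 8 tags within 1 kb, a ratio of 3.02 (1.31 to 7.77, exact adjusted p 0.0218). Of these, 18 and 5 lay within 500 bp (exact adjusted p 0.0150). Rad52, an annealing factor, had 36 and 17 tags within 1 kb, a ratio of 2.13 (1.17 to 4.04, exact adjusted p 0.0350). Its excess lay near the start, where it had 20 and 5 tags within 500 bp (exact adjusted p 0.00734). Its call within 1 kb was lost (exact adjusted p 0.0587) when the TSS was moved by 5 bp to that of the longest coding sequence. Rad51ap1, a recombination cofactor, lay just inside the threshold with 23 and 9 tags, a ratio of 2.57 (1.15 to 6.31, exact adjusted p 0.0461). Without the shift of tags towards fragment centres it did not pass (exact adjusted p 0.0983).

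Brca2, the tumour suppressor that acts after resection, passed within 500 bp only, with 17 and 6 tags there (ratio 2.85, 1.07 to 8.83, exact adjusted p 0.0383) and 24 and 14 within 1 kb. Without the shift it did not pass (exact adjusted p 0.0537). Bard1, the partner of BRCA1, stood at the other end of the range. It had 18 and 16 tags within 1 kb, the lowest ratio of the genes tested at 1.13 (0.545 to 2.37, exact adjusted p 0.811), and 8 anti-FLAG against 13 IgG tags within 500 bp. Palb2, which joins BRCA1 to BRCA2, had 18 and 10 tags within 1 kb, but within 500 bp it had 15 and 2, too few for the test. The genes of one complex thus lay apart, Brca1 at a log2 ratio of 1.48 and Bard1 at 0.17 within 1 kb, a difference that was not tested. The largest log2 ratio of the 42 genes was 2.49. The remaining recombination genes did not pass within 1 kb. Within 500 bp Rad51c and Xrcc2 were tested and did not pass, while Rad54l, Blm, Wrn and Exo1 were under the tag minimum and not tested. Rad51c had 17 and 14 tags within 1 kb, Xrcc2 23 and 18, Rad54l 13 and 11, Blm 16 and 12, Wrn 15 and 9 and Exo1 19 and 12.

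Of the 6 genes of the Fanconi anaemia pathway, which unhooks crosslinks, and of post-replication repair, Fanci was higher within 1 kb. Fanci, a subunit of the FANCI-FANCD2 clamp, had 22 and 7 tags, a ratio of 3.16 (1.30 to 8.76, exact adjusted p 0.0242), and 17 and 4 within 500 bp (exact adjusted p 0.0107). Fancd2, the other subunit, had 23 and 20 within 1 kb and did not pass. Fanca, a subunit of the core ubiquitin ligase complex, passed within 500 bp only, with 17 and 3 tags (ratio 5.70, 1.65 to 30.4, exact adjusted p 0.00494) against 25 and 13 within 1 kb. Rad18, the ligase that ubiquitinates PCNA at stalled forks, passed within 500 bp with 19 and 6 tags (ratio 3.18, 1.22 to 9.74, exact adjusted p 0.0194), against 25 and 16 within 1 kb. At both genes IgG tags lay mostly beyond 500 bp, 10 of 13 at Fanca and 10 of 16 at Rad18. Fancm, the translocase that anchors the core complex, had 25 and 17 tags within 1 kb. Fancc was not tested, with 8 and 5.

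Of the 4 genes of non-homologous end joining, 3 reached the tag minimum within 500 bp, and all 3 were higher there. That count supports nothing, since 62.3% of all promoters tested were higher and the minimum favours promoters high in anti-FLAG. Xrcc5, which encodes Ku80, had 23 and 6 tags within 500 bp, a ratio of 3.86 (1.53 to 11.6, exact adjusted p 0.00494). Within 1 kb it had 32 and 16 and lay just outside the threshold (exact adjusted p 0.0629), passing with the scaling by low-count bins (0.0291). Prkdc, the DNA-dependent protein kinase that Ku recruits, was higher at both widths, with 24 and 9 tags within 1 kb (ratio 2.68, 1.20 to 6.56, exact adjusted p 0.0349) and 18 and 4 within 500 bp (exact adjusted p 0.00734). Lig4, the ligase that seals the break, had, within 1 kb, 37 tags in anti-FLAG and 22 in IgG, the most IgG tags of the 42 genes, and did not pass there (ratio 1.69, 0.972 to 3.01, exact adjusted p 0.116). Within 500 bp Lig4 had 18 and 6 tags (ratio 3.02, 1.15 to 9.29, exact adjusted p 0.0273), a call that was lost at the TSS of its longest coding sequence, 1363 bp away (exact adjusted p 0.443). Xrcc6, which encodes Ku70, was not tested. It had 7 tags in each library within 1 kb, and 3 anti-FLAG and 5 IgG tags within 500 bp.

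Among the excision and mismatch repair genes, Pms2 was the one that passed. Pms2, the endonuclease subunit of the mismatch repair complex MutL alpha, had 28 and 10 tags within 1 kb, a ratio of 2.82 (1.33 to 6.50, exact adjusted p 0.0182), and did not pass without the shift (0.0528). Msh6, the mismatch recognition subunit, had 13 and 5 tags, and Ung, the glycosylase that removes uracil, had 16 and 3, both under the minimum for testing. Ung had the second largest ratio of the 42 genes at 5.36 (1.54 to 28.7), resting on 19 tags. Parp1, the sensor of single-strand breaks, had 29 and 17 tags and Xrcc1, its scaffold for repair, 16 and 7, and neither passed. The nucleotide excision genes, which remove bulky lesions, had the lowest median log2 ratio of the role groups within 1 kb at 0.42, but not within 500 bp, where the base excision genes were lowest at 0.86 against 1.20. Xpc had 23 and 14 tags, Xpa 15 and 11 and Ercc1 21 and 17, and none passed.

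GC content in these genes had a median of 50.8% within 1 kb of the TSS. That compares with 51.15% over all protein-coding genes and 52.7% over the promoters tested within 1 kb. Within 500 bp the median was 56.8%, against 54.8% over all protein-coding genes. Across the 42 genes the log2 ratio within 1 kb rose with GC content with a Pearson correlation of 0.39 and a Spearman correlation of 0.27, against 0.46 and 0.42 across the 10942 promoters tested. The points share the same 2 libraries, and genes are not independent replicates. After dividing by the ratio found in distant DNA of the same GC, the median log2 ratio of the 42 genes was 0.53 within 1 kb and 1.00 within 500 bp, against 0.28 and 0.26 over all genes. Among tested promoters the corrected medians were 0.49 for the repair genes and 0.53 for all within 1 kb, and 1.15 and 0.93 within 500 bp. Xrcc3, the gene of largest ratio, had 58.9% GC over the window. The ratio predicted from distant DNA, summed over the tiles of its window by their GC content, was 1.78, and its log2 ratio went from 2.49 to 1.66 (exact adjusted p 0.0978). At Xrcc5, with the lowest GC content of the 42 genes at 43.1%, the log2 ratio within 1 kb was 0.97 before and 0.96 after (exact adjusted p 0.181). H2afx, at 57.9% GC, went from 1.49 to 1.00 (exact adjusted p 0.221).

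With the correction, Chek2 was the 1 gene of 38 that passed within 1 kb, beside 3.45% of all promoters tested. Its corrected log2 ratio was 1.50 and its exact adjusted p 0.0423. That call depended on the form of the correction, with exact adjusted p of 0.177 when the ratios of the 500-bp tiles were averaged and 0.0867 when the GC content of the whole window was used. Within 500 bp 0 of 17 genes passed the corrected exact test, beside 14.5% of all promoters tested, and 7 had an unadjusted p under 0.05, all higher in anti-FLAG, where 1040 of all 3009 promoters did. Xrcc5 came nearest, with a corrected log2 ratio of 1.54 and an exact adjusted p of 0.0525. Every other call made before the correction was lost with it at both widths. The corrected log2 ratio within 1 kb was above 0 at 38 of the 42 genes and at 14503 of all 22350 protein-coding genes. Some log2 ratios within 1 kb moved little, from 1.40 to 1.21 at Chek1, from 1.53 to 1.32 at Fanci and from 1.41 to 1.21 at Pms2.

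**Figure D3:**
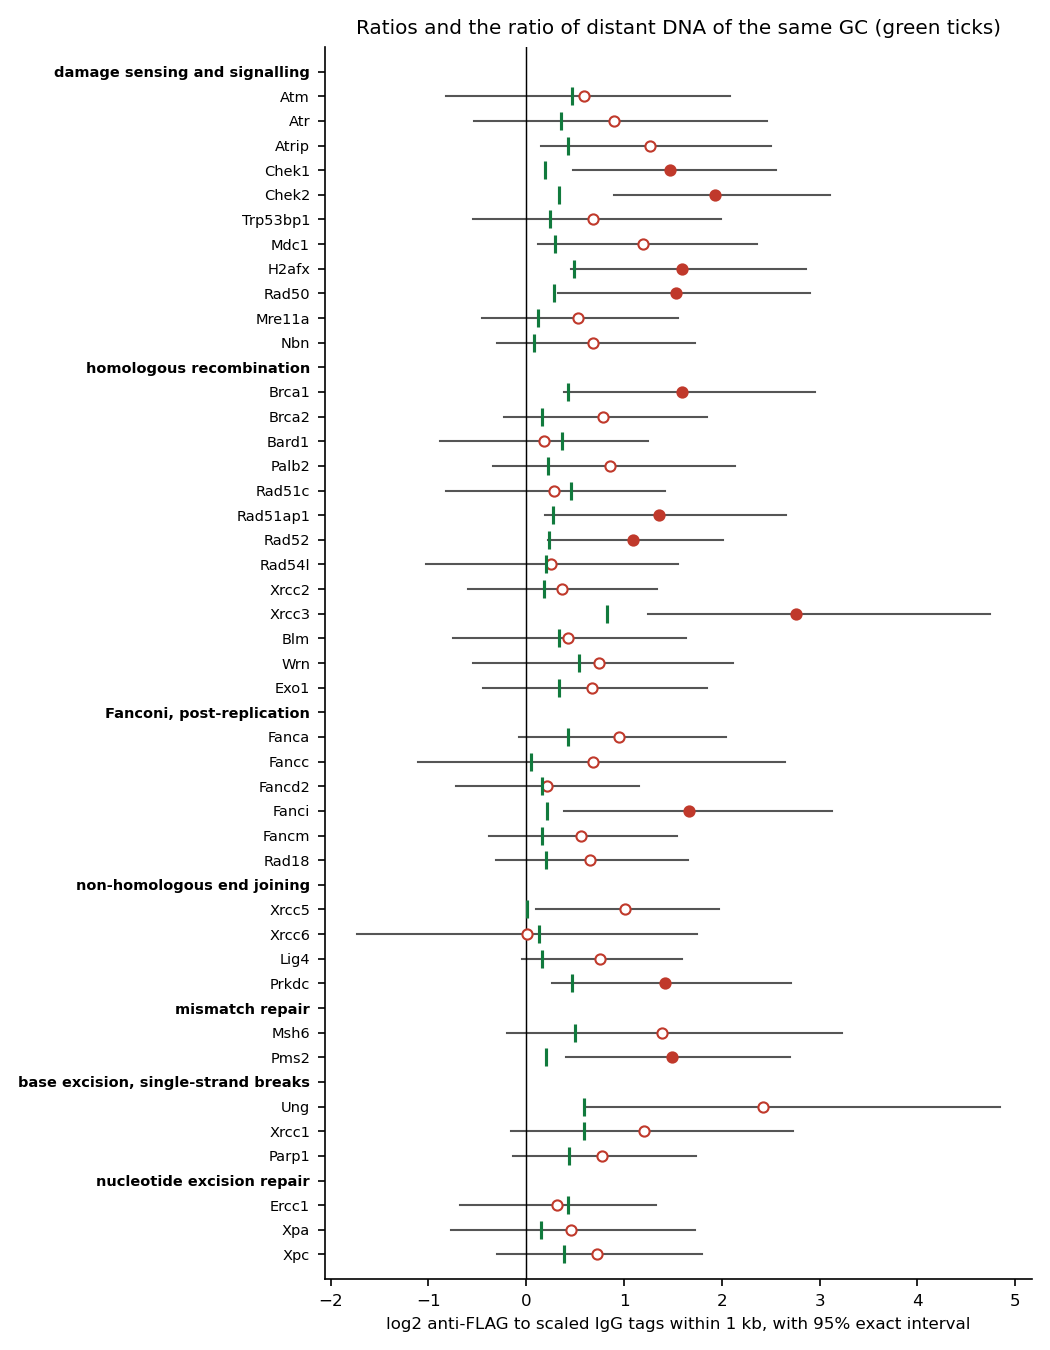
Log2 anti-FLAG to scaled IgG ratio within 1 kb of the TSS (x axis, circles with 95% exact intervals, no tag added) for each of the 42 repair genes (y axis), filled where the exact test was passed, with green ticks at the log2 ratio of distant DNA of the same GC content. The tick lies below the interval at Chek1, Chek2 and Xrcc3, among others, and near 0 at Xrcc5.

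**Figure D4:**
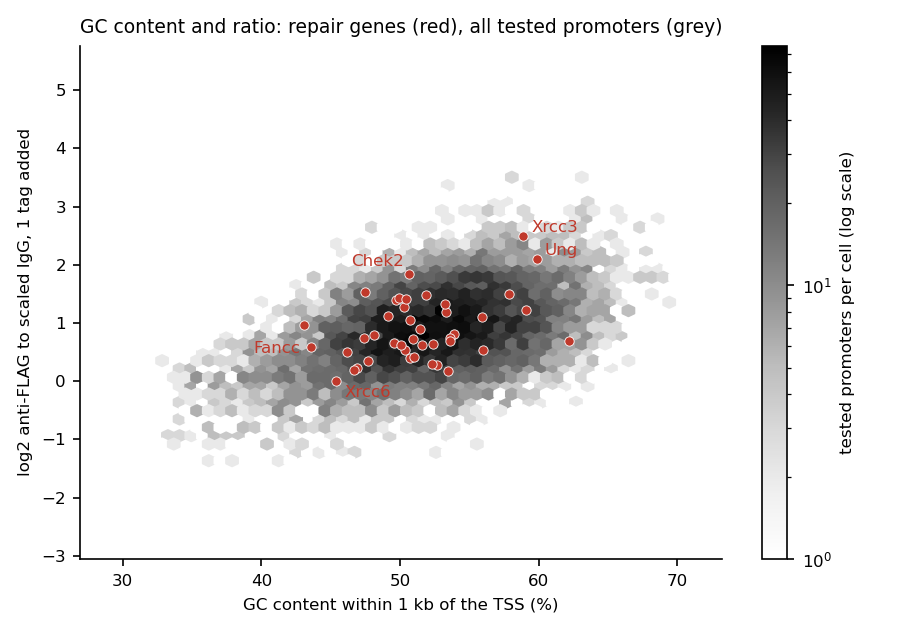
GC content within 1 kb of the TSS (%, x axis) against the log2 anti-FLAG to scaled IgG ratio with 1 tag added (y axis), for the 42 repair genes (red points) over the 10942 tested promoters (grey cells, darker with more promoters, log scale). The red points lie within the grey cloud, Xrcc3 highest at 2.49.

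Regions of anti-FLAG enrichment, merged 500-bp windows with at least 10 tags, at least 2-fold over background and a Poisson p under 1e-05, overlapped the promoter windows of 7 of the 42 genes (16.7%), beside 7.33% of all protein-coding genes. Among promoters with enough tags for the test within 1 kb the shares were 18.4% of 38 repair genes and 14.7% of all. The 7 genes were Chek1, Chek2, H2afx, Brca1, Palb2, Xrcc5 and Ercc1. At Palb2 the region (chr7:129276251-129276750) held 13 anti-FLAG and 0 IgG tags, and 11 of the anti-FLAG tags lay in the 250 bp before the TSS. A count of 0 allows up to 3 IgG tags, against which the ratio was at least 4.36. At Brca1 the region (chr11:101413001-101413500) held 14 and 1 tags around the TSS and covers most of the printed stretch. At Chek2 the region (chr5:111268501-111269250) held 16 and 2 tags and covers the printed stretch whole. H2afx had 16 and 2 tags in a region centred 298 bp before the TSS. Regions lay after the annotated 5′ end at Chek1 (16 and 4 tags), Xrcc5 (17 and 3) and Ercc1 (14 and 1). That placement depends on the 5′ end chosen, since the RefSeq start lies 407 bp further into the gene at Chek1 and 293 bp further at Ercc1, inside the region in both. Ercc1 did not pass the promoter test at either width, and Palb2 did not pass within 1 kb and was not tested within 500 bp. With background corrected for GC content, the region at H2afx was the 1 that remained, beside 2.86% of all genes.

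**Figure D5:**
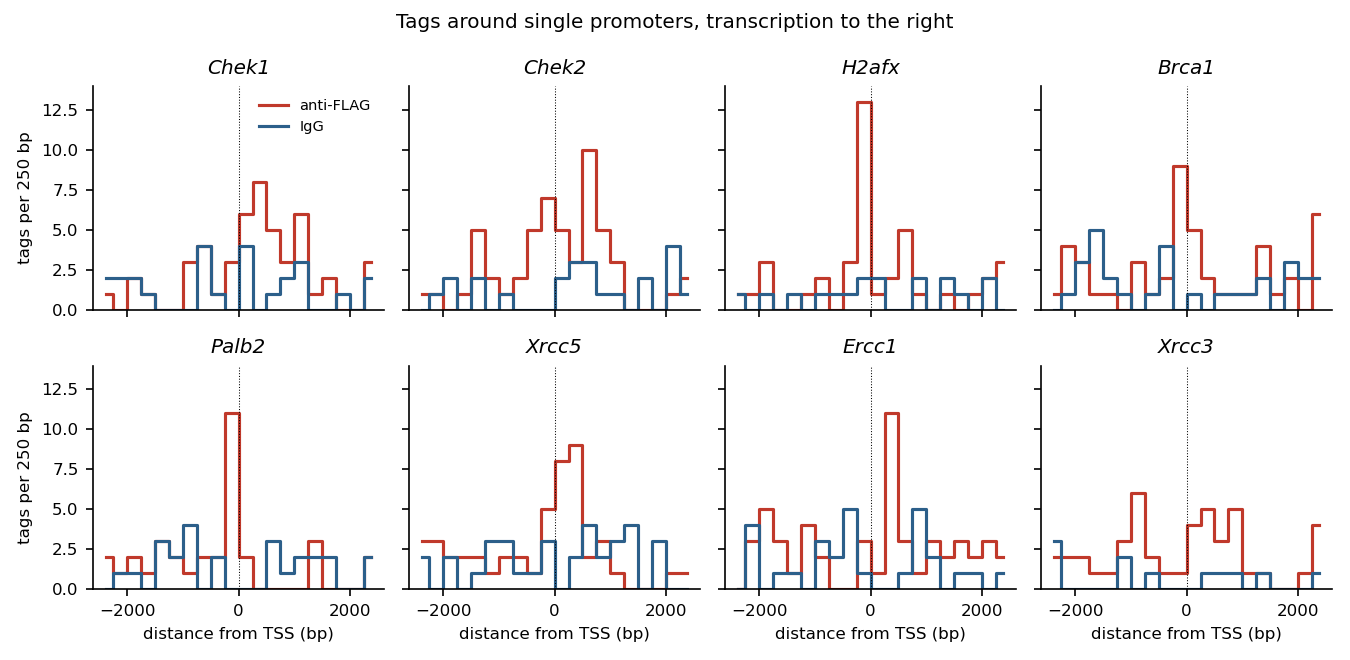
Tags per 250 bp (y axis) against distance from the TSS (bp, x axis) in the anti-FLAG (red) and IgG (blue) libraries, at the 7 repair genes with an overlapping anti-FLAG region and at Xrcc3. H2afx (13 tags) and Palb2 (11) have their highest anti-FLAG bin just before the TSS, and Xrcc3 has no bin above 6.

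Many of the repair genes share their promoter with a neighbour. A coding TSS on the opposite strand lay within 1 kb upstream at 14 of the 42 genes (33.3%), against 7.15% of all protein-coding genes. Brca1 starts 194 bp from Nbr1, Chek2 240 bp from Hscb, Xrcc3 297 bp from Zfyve21, Palb2 95 bp from Dctn5, and Prkdc 466 bp from Mcm4, which encodes a subunit of the replicative helicase. Atm starts 307 bp from Npat, and Lig4 21 bp from Abhd13. Tags at such promoters cannot be assigned to 1 gene of the pair. Of the 14 genes, 6 were higher in anti-FLAG within 1 kb, against 5 of the 24 tested without such a neighbour, a difference that was not tested. Over all genes the shares were 40.8% and 28.1%. Rad52 and Rad18 start 45 and 91 bp from an annotated noncoding RNA on the opposite strand.

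The annotated 5′ end mattered at 2 of the untested genes. The longest coding transcript of Fancc starts 65533 bp inside the annotated gene, and there the libraries had 24 and 9 tags within 1 kb (log2 ratio 1.33, exact adjusted p 0.0346). That of Xrcc6 starts 28534 bp inside, where the libraries had 26 and 13 tags (log2 ratio 0.96, exact adjusted p 0.0926) and 14 and 3 within 500 bp. At 31 of the 42 genes both definitions of the TSS were equal.

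RefSeq promoters were found for 33 of the 42 genes, the others being Rad50, Nbn, H2afx, Fancd2, Wrn, Exo1, Xrcc2, Prkdc and Xpc. An E2F element (TTTCCCGC, TTTGGCGC, TTTCGCGC or TTTGCCGC on either strand) was present in 7 of the 33 (21.2%), against 2.92% of the 17492 RefSeq promoters of the same length. The 7 were Bard1, Brca2, Chek2, Mdc1, Msh6, Rad51c and Xrcc6. Only 24 of the 33 RefSeq starts lay within 100 bp of the annotated TSS around which tags were counted, and those of Bard1, Rad51c and Xrcc6 lay 174, 448 and 28534 bp from it. Of the 7 genes, Chek2 was higher in anti-FLAG at both widths and Brca2 within 500 bp, while Bard1 had the lowest tested ratio. Within this set the element therefore went with high and with low ratios, and no test was made. A CCAAT box (CCAAT) was present in 20 (60.6%, against 39.0%) and an Sp1 element (GGGCGG) in 22 (66.7%, against 46.3%). An ETS element (CCGGAAG) was in 7 (21.2%, against 11.9%), an NRF1 core (CGCATGCG) in 3 (9.09%, against 2.54%) and a CRE (TGACGTCA) in 2 (6.06%, against 2.34%). An E-box (CACGTG) was in 2 (6.06%, against 7.90%), a CHR (TTTGAA) in 1 (3.03%, against 16.5%) and an AP-1 element (TGANTCA) in 0, against 7.08%. Matches of different elements could share bases, each element was counted once per promoter, and a match describes letters only. CG dinucleotides, relative to the number expected from the C and G content, had a median of 0.80 within 500 bp of the 42 TSS. Over all protein-coding genes it was 0.55. The part of this difference in the shares of the elements was not tested.

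A further 89 genes of the same pathways, listed by function, were counted in the same way. Within 1 kb 82 were tested, and 26 were higher in anti-FLAG, beside the 29.7% of all promoters, and 0 were lower, with 0 lower at an unadjusted p under 0.05. With the GC correction, under which 3.45% of all promoters passed, 4 were higher, Mus81, Polq, Tipin and Cetn2, the last named after its value was seen. The 3 of smallest p were Mus81, Polq and Tipin. Polq, the polymerase of microhomology-mediated end joining, had 35 and 6 tags (ratio 5.87, exact interval 2.44 to 17.1), and with 47.0% GC its log2 ratio was 2.37 before and 2.34 after correction (exact adjusted p 2.24e-04 and 0.00306). Mus81, a structure-selective endonuclease, had 61 and 16 tags (ratio 3.83, 2.18 to 7.13, exact adjusted p 4.67e-05), and its flanks had 128 and 70. Tipin, the partner of TIMELESS in fork protection, had 27 and 5 (ratio 5.43, 2.06 to 18.1, exact adjusted p 0.00171). Chek2 at a corrected log2 ratio of 1.50 lay between Mus81 at 1.35 and Tipin at 2.06, differences that were not tested.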

How the data were processed

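Each line of the deposited files is the position of 1 tag. Its score, 512 on every line as deposited, was left out. Per the labels' protocols, formaldehyde-fixed chromatin was sheared, precipitated with mouse IgG or anti-FLAG M2 and made into libraries with an Illumina kit. The sources used here do not give aligner, build or read filters. Within a library every tag had its own position or strand, and all but 1 anti-FLAG tag fitted the chromosome lengths of NCBIM37.

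Groups were taken from the antibody in the labels. The genes, lists, elements and tests were chosen with earlier results of these data known. Tags were moved 77 bp downstream, from the lag of 154 bp between strands, and counted within 1 kb and 500 bp of the 5′ end of each gene (GENCODE annotation). IgG was scaled by library totals, or by the 10-kb bins of low count (up to their median, 0.908). Promoters with at least 20 tags, summed over the libraries, were tested (exact conditional binomial test, Benjamini-Hochberg over all promoters, threshold 0.05). The GC correction multiplied expected tags by the ratio of 500-bp windows over 10 kb from every TSS in strata of 2 GC points, summed over tiles. Region background was the largest of scaled IgG in the window, over 5 and 10 kb, and the genome mean.

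Named with full values were genes past a test at either width, the lowest tested ratio, the most IgG tags, those next to the threshold, and 3 other pathway genes of smallest p. Computations used SciPy 1.17.1 and NumPy 2.4.6 in Python 3.11.15, with Matplotlib 3.10.9 for plots, and the test was tested on simulated data. Alternatives changed the scaling, shift, tag minimum, TSS, strand filter, width, added tag, GC correction and region threshold. At these depths a promoter held few tags, so that differences of small size were not detectable.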

Additional observations from a re-analysis of the deposited data

How the results depend on the processing

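Within 1 kb, the 11 genes higher in anti-FLAG (29.7% of all tested promoters) became 14 with scaling by low-count bins (37.7%), 10 without the shift (29.4%), 9 at a minimum of 10 tags (16.6%) and 5 within 2.5 kb (10.5%), where the wider window adds flank. With the GC correction the count was 1, and 0 under both other forms of it (the mean of the tile ratios, and the GC content of the whole window), which were chosen after seeing the data. The shares of all tested promoters then were 3.45%, 0.411% and 1.11%. Within 500 bp the 12 (62.3%) became 17 at a minimum of 10 tags, which tests 38 genes (33.3%), 9 with at least 25% of tags required on each strand (51.1%), and 0 under each of the 3 GC corrections. Of the other pathway genes 26 were higher, and 4, 1 and 2 with those corrections. The median log2 ratio within 1 kb went from 0.75 to 0.53 with the GC correction and within 500 bp from 1.46 to 1.00. The other alternatives applied to it gave 0.76 to 0.88 within 1 kb and 1.46 to 1.59 within 500 bp. Genes with a region numbered 7 (7.33% of all protein-coding genes), then 2 at a Poisson p under 1e-07 (3.07%) and 1 with the GC correction (2.86%). Of the results given above none changed direction, but the log2 ratio of Bard1 within 1 kb, 0.17 and past no test, went to -0.19, -0.53 and -0.36 with the 3 GC corrections in that order. Of 36 single-gene values, 22 lost their call with the GC correction, 4 without the shift and 3 at the TSS of the longest coding sequence. Among these, Fanca without the shift and Fanci at the other TSS, both within 500 bp, fell under the tag minimum. With the other scaling 2 values gained a call. Where the construction of an alternative does not show it, the cause was not tested. No paired analysis was possible because each antibody had 1 library. Windows held 7 to 38 anti-FLAG tags, which limits what could be detected.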
